A study of Homo sapiens with 44 samples.

Results

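The comparison described here is that of TGF-β1-stimulated with unstimulated Ccd-18Co cells, a fibroblast line derived from human colon, by bulk RNA sequencing. Its members were the 4 libraries titled TGFB1 and the 4 titled unstimulated, 8 of the 44 libraries of a series in which the same line was treated with 1 of 10 cytokines or left untreated (11 groups of 4 libraries). Cells of up to passage 20, grown with 20% serum, were kept without serum for 72 h and were then given TGF-β1 at 10 ng/ml or no cytokine for 24 h before lysis. Both groups therefore shared the starvation, the plate format and the single cell line. The 4 libraries treated with IL-13, a type 2 cytokine, at the same dose served for 1 further comparison. Nothing in the labels says that the replicates were separate cultures. The p-values therefore measure only the spread between libraries of a group, which may be technical. That spread was estimated in 1 fit to all 44 libraries, not from the 8 alone. In bulk libraries, fewer cells of one state and less RNA per cell cannot be told apart.

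TGF-β1 is a secreted growth factor that binds a pair of receptor kinases, which phosphorylate SMAD2 and SMAD3. These enter the nucleus with SMAD4 and act on target genes together with other factors, among them AP-1. In fibroblasts the pathway is known for raising matrix and contractile genes, the myofibroblast state of wound repair and fibrosis, and it also represses genes, including growth factor and cell cycle genes.

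Total counts ranged from 825001 to 1470192 in TGF-β1 and from 1365019 to 1725354 in unstimulated libraries. A tested gene had a median count of 20 to 47 per library, and a count of 3 corresponded to 1.47 to 3.19 CPM, the usual depth-scaled unit, computed on normalized library sizes. Values below are in CPM and are listed in the order of replicates 1 to 4. No pair of replicates was identical, and log2 CPM of replicates correlated across genes with r between 0.879 and 0.935. The summed CPM of 8 fibroblast markers was 27148 to 38538 in unstimulated and 24322 to 28831 in TGF-β1 libraries, and 3 of them, THY1, COL1A2 and LUM, fell. THY1 missed the threshold without TGFB1 replicate 3 (adjusted p = 0.105) or 4 (0.119) or unstimulated replicate 1 (0.239). Markers of other cell types were scarce. The summed CPM was at most 2.20 for 5 endothelial, 16.0 for 6 immune, 20.4 for 6 epithelial and 2.81 for 4 glial markers. The immune markers CD3E and LYZ, the epithelial marker EPCAM, the endothelial markers VWF and CDH5 and the glial marker SOX10 had 0 counts in all 8 libraries.

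With TGF-β1, genes that rose included IL11 and CCN2 among secreted factors, MMP10 and MMP3 among matrix proteases and FN1 among matrix glycoproteins. Genes that fell included the collagen chain genes COL3A1 and COL14A1, ALDH1A1 of retinoid metabolism and the growth factor gene HGF. Of 9513 genes tested by edgeR's quasi-likelihood test, 248 rose (2.61% of those tested) and 293 fell (3.08%) at an adjusted p under 0.05. With an absolute log2 fold change above 1.5 as well, 61 genes were called risen (0.641%) and 101 called fallen (1.06%). All 4 TGF-β1 libraries lay above all 4 unstimulated libraries for 372 genes (3.91%) and below them for 511 (5.37%). Of the 162 called genes, 138 did not overlap between the groups. The median log2 fold change of all genes tested was -0.02. Single libraries changed these numbers: 138 genes rose and 175 fell without unstimulated replicate 2 (65 of them called fallen), 405 rose and 454 fell without TGFB1 replicate 4, and 158 rose without TGFB1 replicate 1. In a fit to the 8 libraries alone, 56 genes were called risen and 54 called fallen, so that risen genes made up 50.9% of the called genes against 37.7% in the fit to all 44 libraries.

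**Figure D1:**
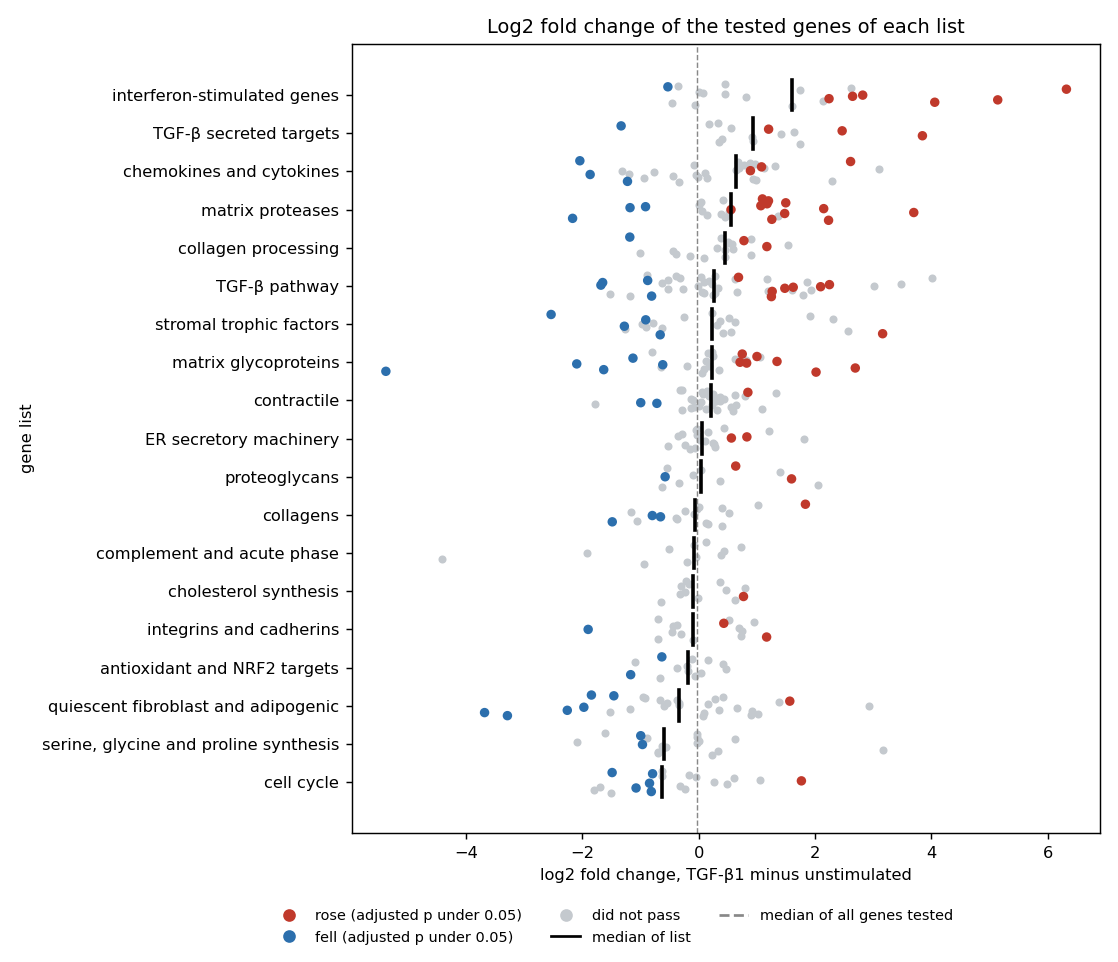
Log2 fold change of TGF-β1 over unstimulated cells for the tested genes of 19 gene lists. Each point is 1 gene, red where it rose and blue where it fell at an adjusted p under 0.05, grey where it did not pass, black bars are list medians and the dashed line is the median of all 9513 genes. Fitted values of genes near 0 counts in 1 group are included and are not bounds. Matrix proteases have the most risen genes (11) and cell cycle genes the lowest median (-0.62).

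List medians below rest on fitted values. With genes at or below 3 counts in every library of 1 group taken at their bound, and those at or below it in both groups left out, the median log2 fold change was 0.25 for the pathway, 0.66 for chemokines and cytokines, 0.27 for trophic factors, 0.06 for complement and acute phase, -0.61 for serine, glycine and proline synthesis and -0.11 for antioxidant genes, so that the complement list changed sign.

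Components of the pathway itself moved in both directions, with INHBA, PMEPA1 and ID3 among those that rose and NOG and SMAD3 among those that fell. Of the 42 tested of 49 listed components, 7 rose, 4 fell and 31 did not pass, and their median log2 fold change was 0.26. The 8 tested ligands held 1 risen gene, INHBA, which encodes the chain of activin A. INHBA measured 44.6, 62.7, 59.1 and 66.3 CPM in unstimulated cells and 235, 186, 249 and 321 CPM with TGF-β1. The groups did not overlap, and INHBA rose 4.28-fold (log2 fold change 2.10, standard error 0.27, adjusted p = 5.16e-07). TGFB1 itself was below the filter on low counts, and TGFB2 (log2 fold change -0.32, adjusted p = 0.859) did not pass.

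Of 8 tested receptors, the activin receptor-like kinase gene ACVR1 (log2 fold change 1.25, standard error 0.31, adjusted p = 0.00789) and TGFBR1 rose and the type II receptor gene ACVR2A fell (log2 fold change -0.81, standard error 0.21, adjusted p = 0.0137). TGFBR1, the type I receptor of TGF-β, was at 154, 144, 142 and 139 CPM without and 187, 228, 205 and 311 CPM with TGF-β1. Every stimulated library was above every unstimulated library, for a change of 1.61-fold (log2 fold change 0.69, standard error 0.18, adjusted p = 0.0131). Without TGFB1 replicate 4, the highest library, the adjusted p was 0.0508.

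Inhibitors of the pathway moved in both directions. PMEPA1, a membrane protein that sequesters SMADs, measured 4.41, 10.9, 9.15 and 4.10 CPM in unstimulated and 42.1, 30.8, 36.3 and 26.4 CPM in stimulated libraries. PMEPA1 rose 4.75-fold without overlap (log2 fold change 2.25, standard error 0.70, adjusted p = 0.0443), but its adjusted p lay between 0.0600 and 0.131 in 7 of the 8 fits without 1 library. SMAD7, the inhibitory SMAD, had few counts (5.88, 1.46, 4.93 and 2.73 CPM without and 20.3, 7.44, 12.7 and 15.4 CPM with TGF-β1). Its groups did not overlap, and it did not pass the test (log2 fold change 1.86, standard error 0.69, adjusted p = 0.104). FST, which encodes the activin antagonist follistatin, rose from 35.3, 51.0, 59.8 and 57.4 CPM to 88.9, 74.4, 163 and 159 CPM (log2 fold change 1.26, standard error 0.24, adjusted p = 0.000415).

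NOG, which encodes the BMP antagonist noggin, measured 58.3, 83.8, 109 and 84.7 CPM in unstimulated and 10.9, 13.8, 20.9 and 56.5 CPM in TGF-β1 libraries. All 4 stimulated libraries were lower, with TGFB1 replicate 4 closest to the unstimulated level, and NOG fell by 1.68 on the log2 scale (standard error 0.33, adjusted p = 0.000631). SMAD3, the receptor-regulated SMAD, was at 38.7, 28.4, 21.8 and 20.5 CPM and 3.12, 9.57, 8.17 and 13.9 CPM, again without overlap. It fell by 1.65 on the log2 scale (standard error 0.34, adjusted p = 0.00137), and SMURF2, a ubiquitin ligase of the pathway, fell by 0.88 with overlap (standard error 0.24, adjusted p = 0.0194). In the fit to the 8 libraries alone, SMAD3 had an adjusted p of 0.0735 and 1 component passed as fallen. Without TGFB1 replicate 1 or unstimulated replicate 2, 2 components fell, with ACVR2A at adjusted p values of 0.0781 and 0.0879. SMURF2 missed the threshold in 5 of the 8 fits without 1 library (adjusted p up to 0.115).

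Of 11 tested early target factors, ID1 and ID3, inhibitors of differentiation that are targets of BMP and TGF-β signalling, rose. ID3 measured 103, 53.2, 96.4 and 96.3 CPM in unstimulated and 305, 386, 269 and 124 CPM in stimulated cells. TGFB1 replicate 4 was the lowest stimulated library but stayed above all unstimulated ones, and ID3 rose 3.09-fold (log2 fold change 1.63, standard error 0.29, adjusted p = 0.000208). ID1 rose from 7.83, 14.6, 6.33 and 20.5 to 41.3, 35.1, 32.7 and 27.9 CPM (log2 fold change 1.48, standard error 0.40, adjusted p = 0.0163), and missed the threshold without TGFB1 replicate 1 (adjusted p = 0.0578), unstimulated replicate 1 (0.0586) or unstimulated replicate 3 (0.0572). SNAI2 (log2 fold change -0.53) and KLF10 (log2 fold change -0.00) did not pass.

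Secreted factors that TGF-β is known to raise held the steepest well-measured rise. Their list, the secreted targets, also held the oxidase gene NOX4, whose product is not secreted. Of 14 tested, 3 rose, 1 fell and 10 did not pass (median log2 fold change 0.93). A fold change above 1 was found for 13 of the 14, against 4629 of all 9513 genes tested. IL11, a cytokine of the IL-6 family, was at 6.86, 6.56, 4.93 and 7.51 CPM in unstimulated cells and 132, 48.9, 113 and 83.7 CPM with TGF-β1. The groups were far apart, and IL11 rose 14.4-fold (log2 fold change 3.85, standard error 0.48, adjusted p = 3.07e-07). NOX4, an oxidase that makes hydrogen peroxide, measured 10.8, 3.65, 12.7 and 15.0 CPM and 65.5, 60.6, 55.4 and 53.6 CPM. The 4 stimulated libraries lay close together and apart from the unstimulated ones (log2 fold change 2.47, standard error 0.56, adjusted p = 0.00397).

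PDGFA, a growth factor for mesenchymal cells, rose from 24.0, 60.5, 54.9 and 26.0 to 61.6, 92.5, 122 and 102 CPM without overlap (log2 fold change 1.20, standard error 0.31, adjusted p = 0.0123). STC2, a secreted glycoprotein, fell by 1.33 on the log2 scale (standard error 0.37, adjusted p = 0.0233), and its groups overlapped. PDGFA missed the threshold without TGFB1 replicate 3, unstimulated replicate 1 or unstimulated replicate 4 (adjusted p between 0.0550 and 0.0641), and STC2 without TGFB1 replicate 4, unstimulated replicate 1 or unstimulated replicate 2 (adjusted p up to 0.0905). CCN2, a matricellular protein also called CTGF, measured 203, 273, 424 and 289.6 CPM in unstimulated cells and 1097, 1496, 1164 and 1063 CPM in stimulated cells. No library overlapped, and CCN2 rose 4.05-fold (log2 fold change 2.02, standard error 0.21, adjusted p = 6.55e-09).

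**Figure D2:**
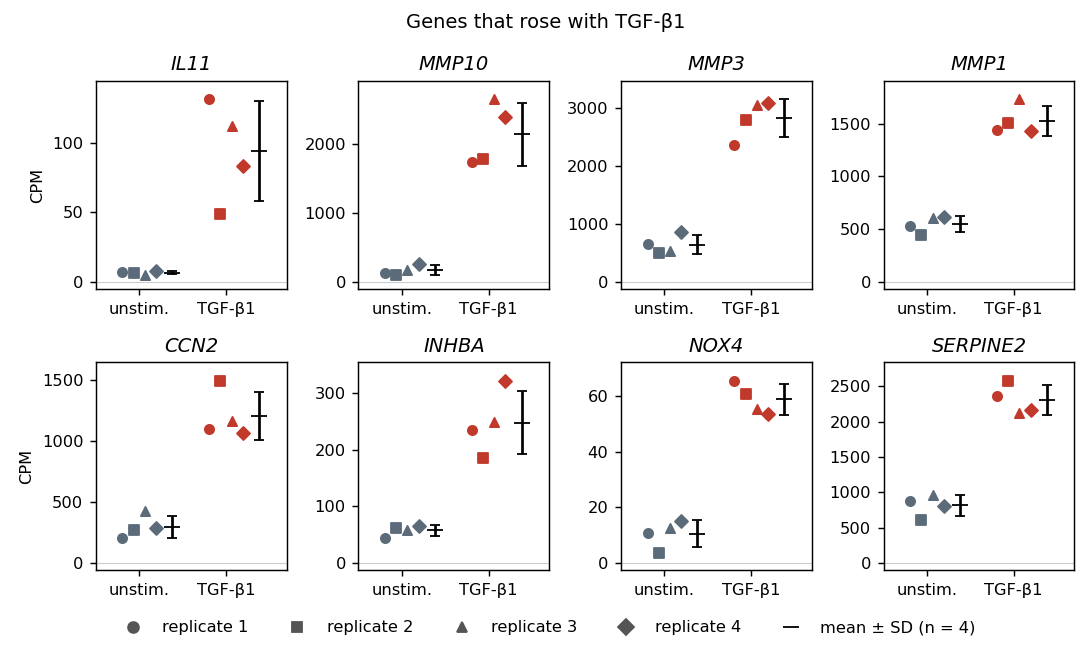
CPM of 8 genes that rose with TGF-β1, in each of the 4 unstimulated (grey) and 4 TGF-β1 (red) libraries, with the mean ± SD of each group beside the points. For each gene all stimulated libraries lie above all unstimulated ones, for example IL11 at 48.9 to 132 CPM against 4.93 to 7.51 CPM.

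Genes of matrix breakdown held the highest number of risen genes of the 19 lists. Of 23 tested proteases and inhibitors, 11 rose, 3 fell and 9 did not pass, and 8 had all TGF-β1 libraries above and 3 all below the unstimulated libraries. Their median log2 fold change was 0.56, or 0.81 without the 1 gene that was at or below 3 counts in every library of both groups. MMP10, stromelysin 2, measured 131, 94.0, 175 and 259.6 CPM in unstimulated and 1738, 1779, 2651 and 2398 CPM in TGF-β1 libraries. The groups were far apart, with a 13.0-fold rise (log2 fold change 3.70, standard error 0.38, adjusted p = 3.39e-09).

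MMP3, stromelysin 1, was at 649, 499, 534 and 861 CPM without and 2368, 2794, 3047 and 3086 CPM with TGF-β1, a 4.44-fold rise (log2 fold change 2.15, standard error 0.33, adjusted p = 1.26e-05). MMP1, an interstitial collagenase that cleaves fibrillar collagen, was at 526, 445, 604 and 616 CPM and 1443, 1507, 1733 and 1431 CPM, a 2.79-fold rise (log2 fold change 1.48, standard error 0.26, adjusted p = 0.000119). For both, each stimulated library was above each unstimulated library. The 3 genes lie within 73.1 kb of each other on chromosome 11 (GRCh38, chr11:102770502-102843609, from the end of MMP10 to the start of MMP3, GENCODE release 44). They are similar in sequence, so reads may be split between them. Of their neighbours, MMP12 measured 5.88, 16.0, 2.81 and 7.51 CPM in unstimulated and 14.8, 15.95, 11.8 and 24.2 CPM in stimulated libraries, MMP8 and MMP13 had at most 3 and 8 counts, and MMP7, MMP20 and MMP27 had 0 counts in all 8 libraries. These neighbours were chosen by position, after values were seen, and were in none of the gene lists.

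ADAM12, a membrane metalloprotease of mesenchymal cells, rose from 16.6, 17.5, 9.85 and 21.2 CPM to 99.0, 109.5, 60.8 and 39.6 CPM (log2 fold change 2.23, standard error 0.41, adjusted p = 0.000250). TGFB1 replicates 1 and 2 were the highest, and no library overlapped. ADAM19, a related protease, rose 2.39-fold (log2 fold change 1.26, standard error 0.17, adjusted p = 1.96e-06), and the gelatinase gene MMP2 rose 1.47-fold (log2 fold change 0.56, standard error 0.15, adjusted p = 0.0140) with overlapping groups. ADAMTS1, a protease that cleaves proteoglycans, moved the other way, from 232, 288, 248 and 210.4 CPM to 43.7, 58.5, 57.2 and 58.7 CPM. Its 4 stimulated libraries lay far below the unstimulated ones, a 4.49-fold fall (log2 fold change -2.17, standard error 0.20, adjusted p = 3.09e-10).

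Among inhibitors of proteases, SERPINE2, protease nexin 1, rose from 881, 614, 967 and 803 CPM to 2363, 2577, 2121 and 2169 CPM, with all stimulated libraries higher, a 2.83-fold rise (standard error 0.16 on the log2 scale, adjusted p = 6.59e-09). TIMP1, an inhibitor of metalloproteinases, was at 2061, 1185, 1256 and 1303 CPM and 3958, 3986, 3325 and 2083 CPM (log2 fold change 1.20, standard error 0.21, adjusted p = 0.000139), where TGFB1 replicate 4 exceeded unstimulated replicate 1 by the smallest margin. The serine protease genes PLAT (log2 fold change -1.18, standard error 0.27, adjusted p = 0.00442) and PLAU (log2 fold change -0.91, standard error 0.22, adjusted p = 0.00812) fell without overlap, while PLAUR, the receptor gene of the PLAU product, rose (log2 fold change 1.07, standard error 0.26, adjusted p = 0.00644) with overlapping groups. TIMP3 (log2 fold change 1.10, standard error 0.32, adjusted p = 0.0291) also rose, and missed the threshold without TGFB1 replicate 1 or 2 or unstimulated replicate 2, 3 or 4 (adjusted p up to 0.121), as did MMP2 without TGFB1 replicate 2 or unstimulated replicate 2 or 4 (adjusted p up to 0.0768).

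Promoters are shown for 4 risen genes because their windows hold letters bound by factors that act with this pathway. The RefSeq windows (GRCh38.p14) span 250 bases before to 50 after the start of a gene and are printed 5′ to 3′ on the strand of the gene. Capitals mark the SMAD box (CAGAC or its reverse complement) in every window, and also the AP-1 site (TGANTCA) in IL11 and MMP10, the core TEAD site (GGAATG) in CCN2 and the CArG box, the site of serum response factor, in ACTC1. All were searched on both strands. The window of IL11 lies at chr19:55370414-55370713 on the minus strand, that of MMP10 at chr11:102780579-102780878 (minus), that of CCN2 at chr6:131951323-131951622 (minus) and that of ACTC1, the cardiac actin gene, at chr15:34795500-34795799 (minus).
IL11: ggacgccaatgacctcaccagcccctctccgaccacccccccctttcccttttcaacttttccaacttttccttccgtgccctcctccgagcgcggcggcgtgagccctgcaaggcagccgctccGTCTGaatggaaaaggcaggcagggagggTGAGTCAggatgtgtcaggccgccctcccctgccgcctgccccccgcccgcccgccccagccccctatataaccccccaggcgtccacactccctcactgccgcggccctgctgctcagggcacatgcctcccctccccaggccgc
MMP10: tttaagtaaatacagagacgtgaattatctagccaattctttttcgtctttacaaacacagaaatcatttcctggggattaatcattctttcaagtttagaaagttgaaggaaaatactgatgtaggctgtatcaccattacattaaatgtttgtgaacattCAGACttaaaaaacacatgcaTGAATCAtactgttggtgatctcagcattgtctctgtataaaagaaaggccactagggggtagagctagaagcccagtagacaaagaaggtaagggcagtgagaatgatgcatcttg
CCN2: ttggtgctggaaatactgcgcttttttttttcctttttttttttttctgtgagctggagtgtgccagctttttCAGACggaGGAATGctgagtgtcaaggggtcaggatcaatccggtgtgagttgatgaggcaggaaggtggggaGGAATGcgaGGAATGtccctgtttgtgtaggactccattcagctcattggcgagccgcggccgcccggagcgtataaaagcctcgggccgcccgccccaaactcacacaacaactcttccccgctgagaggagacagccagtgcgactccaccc
ACTC1: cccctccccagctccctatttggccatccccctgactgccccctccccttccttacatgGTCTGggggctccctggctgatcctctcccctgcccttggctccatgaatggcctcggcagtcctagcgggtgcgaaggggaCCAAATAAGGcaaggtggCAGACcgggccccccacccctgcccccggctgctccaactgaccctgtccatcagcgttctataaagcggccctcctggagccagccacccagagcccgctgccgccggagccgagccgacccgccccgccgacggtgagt

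The AP-1 site of IL11 began 96 bases and that of MMP10 67 bases before the start, and the 3 core TEAD sites of CCN2 began 169, 104 and 95 bases before it. The CArG box of ACTC1 began 109 bases before the start. An AP-1 site was in the window of 7 of the 49 called risen genes with a window (14.3%), 3 of 81 called fallen genes (3.70%) and 4.64% of the 7824 tested genes with a window, against 7.76% of all 27305 windows. A SMAD box was in 51.0% of called risen, 55.6% of called fallen and 42.6% of all tested genes with a window (45.0% of all windows), and the core TEAD site in 16.3%, 12.3% and 10.8% (14.0%). The CArG box was in 2 called risen genes, 0 called fallen genes and 6 of 32 contractile genes (18.8%), against 1.12% of tested genes (1.29% of all windows). Of 17 collagen genes, 7 held a SMAD box (41.2%), 1 the core TEAD site (5.88%) and 0 an AP-1 site or CArG box. The palindrome GTCTAGAC was in 0 windows of called genes and 0.128% of tested genes (0.201% of all windows), and the longer TEAD site ACATTCCA, which contains the core site, in 0 windows of called genes and 0.562% of tested genes (1.17%). These matches are descriptions of the letters and were not tested.

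Collagen transcripts, by contrast with the proteases, did not rise as a group. Of 18 tested chains, 1 rose, 3 fell and 14 did not pass (median log2 fold change -0.05), and of 6 tested fibrillar chains 2 fell and 0 rose (median -0.53). COL1A1, the α1 chain of type I collagen, measured 5404, 13339, 13811 and 10008 CPM in unstimulated and 9615, 6744, 7501 and 8473 CPM in TGF-β1 libraries. The groups overlapped, with unstimulated replicate 1 the lowest of all 8 libraries, and COL1A1 did not pass (log2 fold change -0.40, standard error 0.36, adjusted p = 0.610). COL3A1, the type III collagen chain, fell from 2050.2, 2656, 3113 and 2553 CPM to 1642, 1456, 1423 and 1456 CPM without overlap (log2 fold change -0.80, standard error 0.19, adjusted p = 0.00550).

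COL1A2, the partner chain of type I collagen, was at 1796, 2463, 2202 and 1965 CPM and 1438, 1491, 1126 and 1297 CPM. It was lower in all stimulated libraries (log2 fold change -0.65, standard error 0.20, adjusted p = 0.0421), but missed the threshold in 7 of the 8 fits without 1 library (adjusted p up to 0.158). COL14A1, a fibril-associated collagen, had the steepest fall of the list, from 260.0, 292, 242 and 195 CPM to 102, 115, 63.5 and 74.1 CPM (log2 fold change -1.48, standard error 0.22, adjusted p = 5.91e-06). COL8A1, a short-chain network collagen, alone rose, from 22.5, 38.6, 33.8 and 41.7 CPM to 92.8, 94.6, 114 and 182 CPM, with TGFB1 replicate 4 highest (log2 fold change 1.84, standard error 0.27, adjusted p = 9.45e-06). Among genes that process collagen, 19 were tested, the hydroxylase genes P4HA2 (log2 fold change 1.17, standard error 0.31, adjusted p = 0.0161) and PLOD2 (log2 fold change 0.78, standard error 0.24, adjusted p = 0.0407) rose, and the crosslinker gene TGM2 fell (log2 fold change -1.18, standard error 0.26, adjusted p = 0.00294). Of the 14 tested hydroxylases, chaperones and propeptidases, 13 had a fold change above 1 (median log2 fold change 0.55), against 4629 of all 9513 genes. LOX, the lysyl oxidase gene, did not pass (log2 fold change -0.38, adjusted p = 0.491). P4HA2 and PLOD2 missed the threshold in 5 and 4 of the fits without 1 library.

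Matrix glycoproteins were split. Of 27 tested, 7 rose, 5 fell and 15 did not pass (median log2 fold change 0.22). FN1, fibronectin, measured 1391, 1419, 972 and 1024 CPM in unstimulated and 2694, 2633, 1739 and 1457 CPM in stimulated libraries. All stimulated libraries were higher, by a narrow margin for TGFB1 replicate 4, and FN1 rose 1.77-fold (log2 fold change 0.83, standard error 0.20, adjusted p = 0.00776). Without TGFB1 replicate 1 its adjusted p was 0.0534. POSTN, periostin, rose from 280.1, 465, 364 and 355 CPM to 652, 722, 696 and 861 CPM (log2 fold change 1.00, standard error 0.19, adjusted p = 0.000584), and TGFBI, an adhesive protein named for its induction by TGF-β, from 1265, 1218, 1099 and 1083 CPM to 2280.2, 2280.0, 1737 and 1551 CPM (log2 fold change 0.75, standard error 0.13, adjusted p = 0.000172). Neither overlapped between the groups.

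ELN, elastin, had few counts, at 1.96, 0.729, 3.52 and 1.37 CPM and 20.3, 11.7, 10.9 and 8.07 CPM. It rose 6.47-fold without overlap (log2 fold change 2.69, standard error 0.75, adjusted p = 0.0214) and missed the threshold without TGFB1 replicate 1, unstimulated replicate 2 or unstimulated replicate 4 (adjusted p up to 0.0889). The latent TGF-β binding protein genes LTBP2 (log2 fold change 1.35, standard error 0.34, adjusted p = 0.0113) and LTBP1 (log2 fold change 0.71, standard error 0.18, adjusted p = 0.0131) rose as well. Of the 13 tested elastic fibre and latency genes, 3 rose (ELN, LTBP2 and LTBP1), 3 fell (FBN2, EFEMP1 and FBN1) and 7 did not pass. FBN2, fibrillin 2, was at 91.6, 128, 90.8 and 58.1 CPM and 16.4, 24.5, 35.4 and 11.0 CPM (log2 fold change -2.09, standard error 0.55, adjusted p = 0.0145). FBN1, fibrillin 1 (log2 fold change -0.62, standard error 0.16, adjusted p = 0.0114), EFEMP1, fibulin 3 (log2 fold change -1.63, standard error 0.29, adjusted p = 0.000139), and the basement membrane gene NID1 (log2 fold change -1.13, standard error 0.23, adjusted p = 0.00125) also fell, each without overlap. CCN4, a relative of CCN2, had 0 counts in all TGF-β1 libraries and 1.96, 5.10, 4.93 and 2.05 CPM in unstimulated cells, at least 1.34-fold lower against the limit of 3 counts (adjusted p = 0.0392). It missed the threshold in 6 of the 8 fits without 1 library, and FBN2 without TGFB1 replicate 1 or unstimulated replicate 2 (adjusted p = 0.0578 in both). LTBP1 missed it without TGFB1 replicate 1 or unstimulated replicate 2 or 4 (adjusted p up to 0.0628), and FBN1 without TGFB1 replicate 3 (0.0619) or unstimulated replicate 2 (0.0754). Of the whole list, 4 rose and 3 fell without TGFB1 replicate 1, 3 fell without TGFB1 replicate 3 and 2 fell without unstimulated replicate 2.

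Of 11 tested proteoglycan and hyaluronan genes, 2 rose, 1 fell and 8 did not pass (median log2 fold change 0.04). HAS2, hyaluronan synthase 2, measured 265, 348, 497 and 369.5 CPM in unstimulated and 921, 842, 1126 and 1584 CPM in TGF-β1 libraries. The groups were apart, and HAS2 rose 3.03-fold (log2 fold change 1.60, standard error 0.25, adjusted p = 1.44e-05). VCAN, the hyaluronan-binding proteoglycan versican, rose 1.56-fold (log2 fold change 0.64, standard error 0.14, adjusted p = 0.00187). LUM, lumican, a small leucine-rich proteoglycan that binds collagen, was at 2918, 3881, 4343 and 3926 CPM and 2551, 2089, 2439 and 3034 CPM, and fell by 0.58 on the log2 scale (standard error 0.15, adjusted p = 0.0116) with overlap between unstimulated replicate 1 and TGFB1 replicate 4. LUM missed the threshold without TGFB1 replicate 2 or unstimulated replicate 3 (adjusted p up to 0.0639).

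Most contractile genes of the myofibroblast did not pass the test. Of 34 tested, 1 rose, 2 fell and 31 did not pass (median log2 fold change 0.21). A fold change above 1 was found for 24 of the 34, against 4629 of all 9513 genes tested. ACTA2, smooth muscle α-actin, the usual marker of the myofibroblast, measured 853, 636, 254 and 354 CPM in unstimulated and 1109, 1186, 496 and 363 CPM in TGF-β1 libraries. TGFB1 replicates 1 and 2 were above all other libraries and replicates 3 and 4 lay within the unstimulated range, and ACTA2 did not pass (log2 fold change 0.59, standard error 0.37, adjusted p = 0.416). TAGLN, which encodes the actin-binding protein transgelin, was at 612, 327, 222 and 232 CPM and 855, 849, 456 and 258 CPM (log2 fold change 0.79, standard error 0.31, adjusted p = 0.134). CNN1, calponin, was at 32.3, 14.6, 2.81 and 6.15 CPM and 28.1, 44.7, 39.9 and 10.3 CPM (log2 fold change 1.09, standard error 0.56, adjusted p = 0.286), and for both genes the groups overlapped. TAGLN passed without unstimulated replicate 1 (log2 fold change 1.21, adjusted p = 0.0157), without TGFB1 replicate 4 (1.08, adjusted p = 0.0198), with the replicate number as a block (0.80, adjusted p = 0.0391) and with all genes of any count tested (0.78, adjusted p = 0.00452), and missed the threshold in the other 10 alternatives.

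TPM1, a tropomyosin of actin filaments, alone of the list rose, from 766, 916, 792 and 649 CPM to 1609, 1585, 1242 and 1184 CPM. The groups did not overlap (log2 fold change 0.85, standard error 0.16, adjusted p = 0.000390). The non-muscle myosin gene MYH10 (log2 fold change -0.99, standard error 0.31, adjusted p = 0.0470) and the focal adhesion gene LPP (log2 fold change -0.72, standard error 0.22, adjusted p = 0.0457) fell, and each missed the threshold in 5 of the fits without 1 library. Outside the list, ACTC1 measured 2.45, 5.83, 0 and 6.83 CPM and 40.5, 43.6, 27.2 and 9.54 CPM and rose 7.91-fold (log2 fold change 2.98, standard error 0.75, adjusted p = 0.0105). Its reads may be shared with ACTA2 and other near-identical actin genes.

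For ACTA2, TAGLN and the summed list, replicates 1 and 2 stood above 3 and 4 in both groups. This did not hold for TPM1 in unstimulated or CNN1 in TGF-β1 libraries. The summed CPM of the 36 contractile genes was 11598, 11196, 8269 and 8785 in unstimulated and 13774, 13789, 9819 and 9100.0 in stimulated libraries. The 6 smooth muscle markers, of which DES had 0 counts in all 8 libraries, summed to 1085, 595, 359.5 and 452 CPM and 1048, 1113, 549 and 368 CPM in the same order. Most of this sum was ACTG2, also in the contractile list, at 1062, 572, 341 and 426 CPM and 1026, 1093, 528 and 352 CPM. The 6 pericyte markers summed to 38.3 to 56.8 CPM in unstimulated and 39.0 to 53.0 CPM in stimulated libraries. Between same-numbered libraries, the contractile sum, ACTA2 and TAGLN were each higher with TGF-β1. CNN1 and the smooth muscle sum were not higher in every such pair. With the replicate number as a block, the log2 fold change of ACTA2 was 0.57 (adjusted p = 0.151), and TAGLN passed as given above. Without unstimulated replicate 1, the log2 fold change of ACTA2 was 0.93 (adjusted p = 0.155), and it lay between 0.32 and 0.93 over all fits without 1 library.

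**Figure D3:**
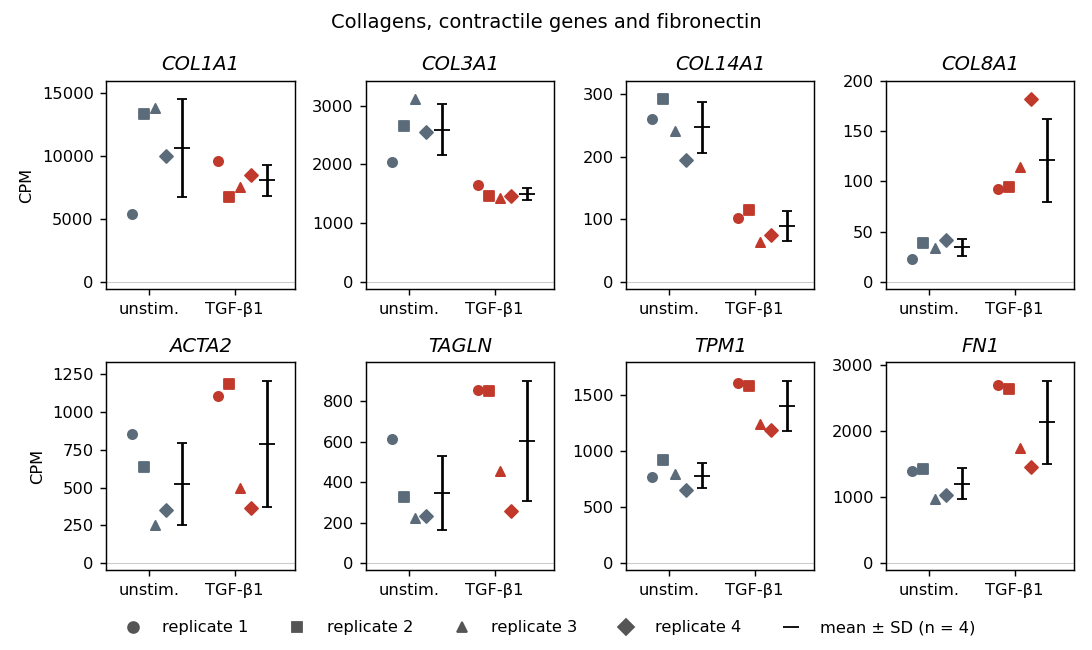
CPM of 4 collagen genes, 3 contractile genes and FN1 in each of the 4 unstimulated (grey) and 4 TGF-β1 (red) libraries, with the mean ± SD of each group. COL3A1 and COL14A1 are lower and COL8A1, TPM1 and FN1 higher in every stimulated library, while COL1A1, ACTA2 and TAGLN overlap. Marker shapes give the replicate.

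Adhesion genes followed no single direction. Of 15 tested integrins and cadherins, CDH2, N-cadherin, rose 2.25-fold (log2 fold change 1.17, standard error 0.23, adjusted p = 0.000925), ITGB1, the common β1 integrin chain, rose 1.35-fold (log2 fold change 0.43, standard error 0.12, adjusted p = 0.0233), and ITGA4, the α4 chain, fell 3.73-fold (log2 fold change -1.90, standard error 0.46, adjusted p = 0.00707). None of these 3 overlapped between the groups. The other 12 did not pass. Of 20 tested genes of the secretory machinery, the stress-induced factor gene MANF (log2 fold change 0.83, standard error 0.25, adjusted p = 0.0412) and the receptor gene KDELR3 (log2 fold change 0.56, standard error 0.17, adjusted p = 0.0350) rose and 0 fell (median 0.06). ITGB1 missed the threshold without unstimulated replicate 2, and MANF and KDELR3 in 5 and 6 of the fits without 1 library.

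Of genes of the resting fibroblast and of lipid, retinoid and steroid handling, several fell steeply. Of 29 tested, 6 fell, 1 rose and 22 did not pass (median log2 fold change -0.34). ALDH1A1, which makes retinoic acid, measured 89.6, 178, 55.6 and 39.6 CPM in unstimulated and 10.9, 7.44, 2.72 and 6.60 CPM in TGF-β1 libraries. Every stimulated library was below every unstimulated library, and ALDH1A1 fell 12.8-fold (log2 fold change -3.68, standard error 0.51, adjusted p = 2.29e-06). ADH1B, an alcohol dehydrogenase, was at 27.4, 10.9, 12.7 and 13.7 CPM and 0, 7.44, 0 and 0 CPM, with 0 counts in 3 of the 4 stimulated libraries (log2 fold change -3.29, standard error 0.84, adjusted p = 0.0119).

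DPP4, a surface peptidase of universal fibroblasts, was at 93.0, 126, 57.0 and 67.6 CPM and 26.5, 34.0, 4.54 and 22.7 CPM. TGFB1 replicate 3 was the lowest, and the groups did not overlap (log2 fold change -1.97, standard error 0.32, adjusted p = 4.33e-05). TCF21, a transcription factor of mesenchymal progenitors, was at 43.6, 16.8, 36.6 and 30.1 CPM and 7.80, 12.8, 15.4 and 0.734 CPM (log2 fold change -1.84, standard error 0.39, adjusted p = 0.00163), and the Wnt antagonist gene SFRP1 fell 2.74-fold (log2 fold change -1.46, standard error 0.29, adjusted p = 0.000855). MGP, the calcification inhibitor matrix Gla protein, was the risen member (log2 fold change 1.57, standard error 0.37, adjusted p = 0.00503). ADH1B missed the threshold without TGFB1 replicate 1 or 3 (adjusted p up to 0.0587). In the fit to the 8 libraries alone 3 of the list fell, and TCF21 (adjusted p = 0.117) and ADH1B (0.0920) did not pass.

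Among growth factors for epithelium and vessels, falls outnumbered rises. Of 21 tested, 4 fell, 1 rose and 16 did not pass, while the median log2 fold change of the list was 0.23. HGF, hepatocyte growth factor, which acts on epithelium, measured 407, 468, 780.3 and 648 CPM in unstimulated and 172, 245, 265 and 270.1 CPM in stimulated libraries. The groups did not overlap, and HGF fell 2.42-fold (log2 fold change -1.28, standard error 0.27, adjusted p = 0.00195). WNT2B, a Wnt ligand of the intestinal stroma, was at 49.5, 46.7, 33.1 and 44.4 CPM and 4.68, 10.6, 9.98 and 5.14 CPM. It fell 5.80-fold without overlap (log2 fold change -2.54, standard error 0.40, adjusted p = 1.81e-05), and PTN, pleiotrophin, fell 1.88-fold (log2 fold change -0.91, standard error 0.19, adjusted p = 0.00115). ANGPT1, a ligand of endothelial TIE2, fell 1.58-fold (log2 fold change -0.66, standard error 0.20, adjusted p = 0.0366) and missed the threshold in 5 of the fits without 1 library.

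AREG, amphiregulin, an EGF receptor ligand, was the member that rose, from 4.41, 5.83, 39.4 and 35.5 CPM to 96.7, 69.1, 263 and 318 CPM (log2 fold change 3.16, standard error 0.69, adjusted p = 0.00218). In both groups replicates 3 and 4 were above replicates 1 and 2, and the lowest stimulated library was above the highest unstimulated one.

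**Figure D4:**
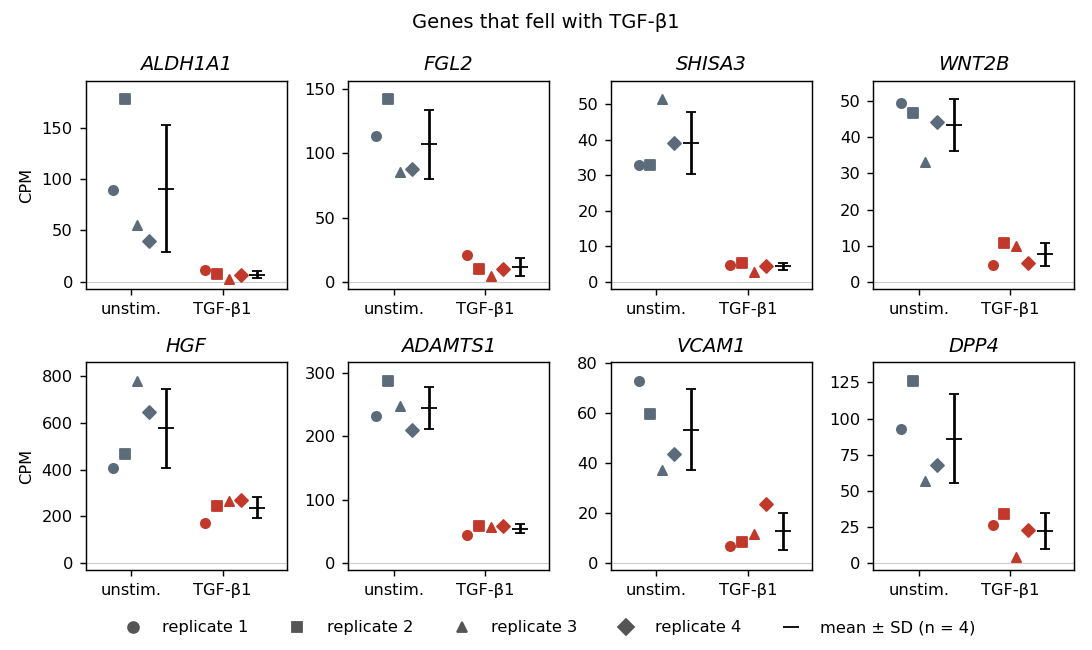
CPM of 8 genes that fell with TGF-β1, in each of the 4 unstimulated (grey) and 4 TGF-β1 (red) libraries, with the mean ± SD of each group. For each gene all stimulated libraries lie below all unstimulated ones, for example ALDH1A1 at 2.72 to 10.9 CPM against 39.6 to 178 CPM.

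Inflammatory mediators moved in both directions. Of 29 tested chemokines, cytokines and related genes, 3 rose, 3 fell and 23 did not pass (median log2 fold change 0.64). TNFAIP6, a secreted hyaluronan-binding protein, measured 56.8, 53.2, 138 and 111 CPM without and 437, 489, 645 and 619 CPM with TGF-β1. It rose 6.12-fold without overlap (log2 fold change 2.61, standard error 0.33, adjusted p = 3.5e-07). IL33, an alarmin, was at 117, 88.9, 172 and 176 CPM and 182, 228, 284 and 476 CPM (log2 fold change 1.08, standard error 0.31, adjusted p = 0.0252), and the neutrophil chemokine gene CXCL6 rose 1.85-fold (log2 fold change 0.89, standard error 0.26, adjusted p = 0.0270). VCAM1, a leukocyte adhesion molecule, was at 73.0, 59.8, 37.3 and 43.7 CPM and 7.02, 8.51, 11.8 and 23.5 CPM.

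All stimulated libraries were below the unstimulated ones for VCAM1, which fell 4.11-fold (log2 fold change -2.04, standard error 0.34, adjusted p = 5.67e-05). CXCL12, a chemokine for lymphocytes and stem cells, was at 57.8, 31.3, 14.1 and 38.3 CPM and 7.80, 11.7, 5.44 and 13.9 CPM, also without overlap (log2 fold change -1.86, standard error 0.45, adjusted p = 0.00692), and CCL2, a monocyte chemokine gene, fell 2.33-fold with overlap (log2 fold change -1.22, standard error 0.25, adjusted p = 0.00146). CXCL8 (log2 fold change 0.64) and IL6 (log2 fold change 1.31) did not pass. The 11 tested complement and acute phase genes missed the threshold of edgeR's test (median log2 fold change -0.07), 3 of them with an unadjusted p under 0.05. Of the chemokine and cytokine list, 1 gene rose without unstimulated replicate 1, unstimulated replicate 2 or TGFB1 replicate 4, where IL33 had adjusted p values of 0.0621, 0.122 and 0.112 and CXCL6 of 0.0771, 0.133 and 0.118. CXCL6 also missed the threshold without TGFB1 replicate 3 (0.0786), while 6 genes of the list rose without unstimulated replicate 4 and 5 fell without TGFB1 replicate 4.

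Several proliferation genes were lower with TGF-β1. Of 19 tested, 5 fell, 1 rose and 13 did not pass, and the list had the lowest median (log2 fold change -0.62). TOP2A, a topoisomerase of dividing cells, measured 194, 200.5, 144 and 179 CPM in unstimulated and 80.3, 53.2, 46.3 and 74.9 CPM in TGF-β1 libraries. No library overlapped, and TOP2A fell 2.80-fold (log2 fold change -1.49, standard error 0.30, adjusted p = 0.000855). The mitotic genes CCNB1 (log2 fold change -1.07, standard error 0.32, adjusted p = 0.0351), CDK1 (log2 fold change -0.84, standard error 0.26, adjusted p = 0.0386) and BIRC5 (log2 fold change -0.81, standard error 0.26, adjusted p = 0.0477) and the nucleotide synthesis gene RRM2 (log2 fold change -0.79, standard error 0.22, adjusted p = 0.0218) fell as well, each without overlap. CDKN2B, which encodes the cell cycle inhibitor p15, rose from 16.6, 13.9, 24.6 and 8.20 CPM to 46.0, 82.9, 39.0 and 49.2 CPM without overlap (log2 fold change 1.77, standard error 0.46, adjusted p = 0.0137).

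The cell cycle calls were marginal. Between 1 and 4 genes of the list fell in the fits without 1 library, with 1 without TGFB1 replicate 3 or unstimulated replicate 2, 2 without unstimulated replicate 4 and 3 without TGFB1 replicate 1, 2 or 4 or unstimulated replicate 1. TOP2A passed in each of these fits. CDKN2B missed the threshold without TGFB1 replicate 2, unstimulated replicate 2 or unstimulated replicate 4 (adjusted p up to 0.0719).

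Metabolic lists held passing genes in both directions, beside 2.61% risen and 3.08% fallen of all 9513 genes tested. Of 18 tested genes of serine, glycine and proline synthesis and amino acid transport, 0 rose and 2 fell, the cystine transporter gene SLC7A11 (log2 fold change -0.99, standard error 0.21, adjusted p = 0.00159) and PSAT1 of serine synthesis (log2 fold change -0.96, standard error 0.30, adjusted p = 0.0467), and the median log2 fold change was -0.59. Of 13 antioxidant genes, GCLM, a subunit of the enzyme that starts glutathione synthesis (log2 fold change -1.17, standard error 0.28, adjusted p = 0.00575), and TXNRD1, thioredoxin reductase (log2 fold change -0.63, standard error 0.20, adjusted p = 0.0461), fell. Of 12 cholesterol synthesis genes, FDPS rose (log2 fold change 0.77, standard error 0.20, adjusted p = 0.0132) and 0 fell. The median log2 fold changes of the antioxidant and cholesterol lists were -0.18 and -0.09. PSAT1, TXNRD1 and FDPS missed the threshold in 5, 6 and 4 of the fits without 1 library.

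Some interferon-stimulated genes were high in 3 of the 4 TGF-β1 libraries, while the list as a whole was not. The summed CPM of the 20 listed genes was 853, 1266, 1325 and 1126 in unstimulated libraries. With TGF-β1 it was 793, 1192, 1224 and 1772, so that only TGFB1 replicate 4 was above the unstimulated range. Of 19 tested, 6 rose, 1 fell and 12 did not pass, with a median log2 fold change of 1.60, or 0.81 with genes at or below 3 counts in 1 group taken at their bound and genes at or below it in both left out. IFIT3, an antiviral effector, measured 11.8, 16.0, 14.1 and 4.78 CPM in unstimulated and 5.46, 77.6, 111 and 136 CPM in TGF-β1 libraries. TGFB1 replicate 1 lay within the unstimulated range and replicates 2 to 4 lay above it (log2 fold change 2.82, standard error 0.49, adjusted p = 0.000111). IFIT2, a related gene, was at 8.81, 10.9, 4.93 and 6.15 CPM and 2.34, 76.6, 57.2 and 62.4 CPM, with TGFB1 replicate 1 below and replicates 2 to 4 above all unstimulated libraries (log2 fold change 2.65, standard error 0.56, adjusted p = 0.00196).

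IFI6, a membrane protein induced by interferon, was at 14.7, 22.6, 26.0 and 19.8 CPM and 13.3, 69.1, 86.2 and 219 CPM (log2 fold change 2.24, standard error 0.60, adjusted p = 0.0165). TGFB1 replicate 4 was highest, and the adjusted p was 0.143 without it and 0.0514 without unstimulated replicate 1. IFI44L, also an interferon target, was at 0, 2.19, 0 and 0 CPM and 3.90, 9.57, 11.8 and 51.4 CPM, the only one of the 6 without overlap, and was at least 9.81-fold higher against the limit of 3 counts (adjusted p = 0.000169). OAS1 and IFI27, further interferon targets, had at most 3 counts in every unstimulated library and were at least 3.77-fold and 3.40-fold higher (adjusted p = 0.00220 and 0.00295), and both had 0 counts in TGFB1 replicate 1.

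CXCL10 and RSAD2, both interferon targets, were looked up after these values were seen. CXCL10, an interferon-induced chemokine gene, measured 0, 0, 2.81 and 6.15 CPM and 3.12, 74.4, 91.6 and 165 CPM. RSAD2, which encodes the antiviral protein viperin, had 0 counts in all unstimulated libraries and 0, 9.57, 8.17 and 10.3 CPM in TGF-β1 libraries. TGFB1 replicate 1 was again the low library for both. Among the other 9 cytokine groups, mean RSAD2 was 742 CPM with IFNα and at most 1.40 CPM elsewhere, and mean CXCL10 was 6319 CPM with IFNα, 5730 CPM with IFNγ, 162 CPM with TNF and at most 40.9 CPM elsewhere, against 83.6 CPM with TGF-β1. Without TGFB1 replicate 1, 7 genes of the list rose. What set replicates 2 to 4 apart from replicate 1 was not tested.

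**Figure D5:**
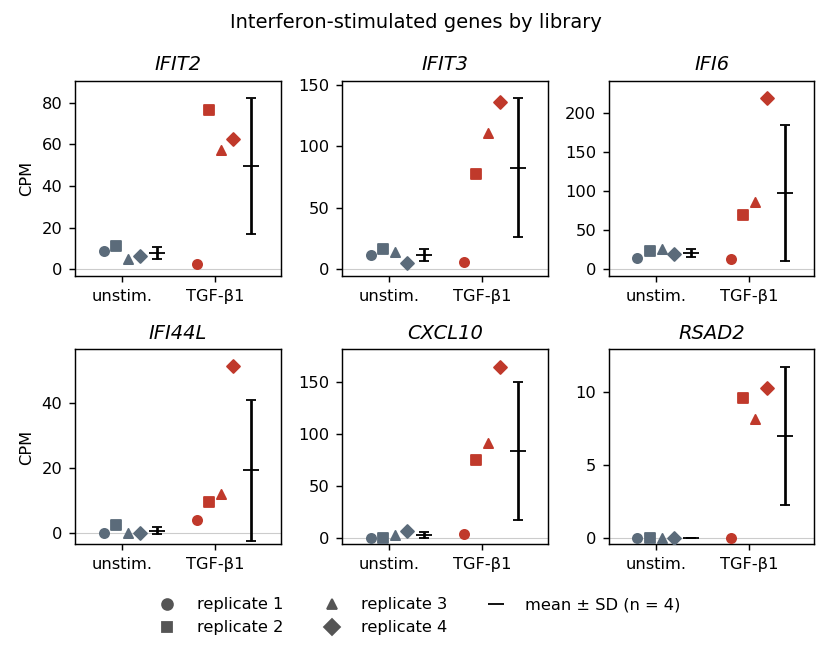
CPM of 6 interferon-stimulated genes in each of the 4 unstimulated (grey) and 4 TGF-β1 (red) libraries, with the mean ± SD of each group. TGFB1 replicate 1 (circle) is not above the unstimulated libraries in any panel but IFI44L, for example 5.46 CPM of IFIT3 against 77.6 to 136 CPM in replicates 2 to 4.

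Beyond the lists, the 15 steepest rises without overlap, besides IL11, MMP10, ELN, AREG, ACTC1, TNFAIP6 and IFI44L, were in genes of diverse roles. PLXDC2, a membrane receptor, had at most 3 counts in each unstimulated library and 21.8, 28.7, 20.0 and 27.2 CPM with TGF-β1, at least 12.5-fold higher (adjusted p = 0.00146). TREM1, known as a receptor of myeloid cells, reached 7.02, 20.2, 13.6 and 5.14 CPM from at most 1 count, at least 5.88-fold higher (adjusted p = 0.0166), and EGR2, a zinc finger factor, reached 13.3, 8.51, 7.26 and 12.5 CPM, at least 5.31-fold higher (adjusted p = 0.0331). For all 3, each stimulated library was above each unstimulated one. TREM1 missed the threshold without unstimulated replicate 2 (adjusted p = 0.0624) or 4 (0.0557), and EGR2 without TGFB1 replicate 1 or unstimulated replicate 1, 2 or 3 (adjusted p up to 0.114).

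PTHLH, parathyroid hormone-related protein, measured 36.2, 35.7, 15.5 and 26.0 CPM in unstimulated and 255, 183, 143 and 114 CPM in stimulated libraries. The groups did not overlap, a 6.09-fold rise (log2 fold change 2.61, standard error 0.36, adjusted p = 2.22e-06). TSPAN13, a tetraspanin, rose from 36.7, 24.1, 40.1 and 60.8 CPM to 321, 322, 295 and 293 CPM, with the stimulated libraries close together (log2 fold change 2.93, standard error 0.43, adjusted p = 6.92e-06). The long noncoding RNA APCDD1L-DT (log2 fold change 3.05, standard error 0.58, adjusted p = 0.000443), the neuropeptide gene NMB (log2 fold change 2.85, standard error 0.89, adjusted p = 0.0470) and the zinc finger gene ZKSCAN5 (log2 fold change 2.74, standard error 0.76, adjusted p = 0.0217) completed the set. APCDD1L-DT starts beside a gene on the opposite strand, and strand was not stated for the counting. NMB missed the threshold in each of the 8 fits without 1 library and ZKSCAN5 in 4 of them.

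The 15 steepest falls without overlap were mostly in genes of few counts. In 9 of them, all TGF-β1 libraries were at or below 3 counts. GPAT3, an enzyme of triglyceride synthesis, had 5.88, 7.29, 12.0 and 6.83 CPM in unstimulated cells and 0 counts in all TGF-β1 libraries, at least 3.06-fold lower (adjusted p = 0.00375), and ADAMTS9, a secreted metalloprotease, had 16.6, 5.83, 12.7 and 27.3 CPM and 1.56, 2.13, 0 and 0 CPM, at least 5.98-fold lower (adjusted p = 0.00345). The bounds of TM4SF1, SYNPO, CCN4, CDCA7, FAM120C, TENT5C and CCDC85B lay between 1.34-fold and 3.61-fold. Well-measured falls were found for FGL2, a secreted fibrinogen-like protein, which measured 114, 142, 85.1 and 87.4 CPM in unstimulated and 21.1, 9.57, 4.54 and 9.54 CPM in stimulated libraries. FGL2 fell 9.35-fold with the groups far apart (log2 fold change -3.22, standard error 0.33, adjusted p = 3.39e-09).

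SHISA3, an inhibitor of Wnt and FGF receptor maturation, fell from 32.8, 32.8, 51.4 and 38.9 CPM to 4.68, 5.32, 2.72 and 4.40 CPM (log2 fold change -3.16, standard error 0.50, adjusted p = 2.63e-05). No library overlapped. NTN4, netrin 4 (log2 fold change -3.06, standard error 0.82, adjusted p = 0.0154), and the transporter-like gene SLC7A14 (log2 fold change -2.96, standard error 0.89, adjusted p = 0.0379) fell too, and with ALDH1A1 and ADH1B they complete the set. NTN4 and SLC7A14 missed the threshold in 4 and 5 of the fits without 1 library, FAM120C in 6 and SYNPO in 4.

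IL-13, another cytokine tied to fibrosis, was applied at the same dose and gave a distinct profile. Of 9513 genes, 261 were higher (2.74%) and 198 lower (2.08%) with TGF-β1 than with IL-13 at both thresholds. The metalloproteinase genes MMP10, MMP3 and MMP1 were higher with TGF-β1, with MMP10 at 17.8 ± 8.25 CPM, MMP3 at 59.6 ± 30.9 CPM and MMP1 at 137 ± 56.6 CPM with IL-13 (SD, n = 4). The log2 differences were 6.88 for MMP10, 5.56 for MMP3 and 3.47 for MMP1 (adjusted p = 2.53e-15, 6.09e-15 and 5.02e-13). IL11 averaged 1.08 CPM and AREG 1.47 CPM with IL-13, below the level of 3 counts, so no fold is given (adjusted p = 8.78e-11 and 7.79e-07). INHBA (2.78, adjusted p = 3.43e-10) and HAS2 (2.81, adjusted p = 2.74e-11) also differed in this direction on the log2 scale, whereas ADAMTS1 was lower with TGF-β1 (-1.80, adjusted p = 2.5e-09).

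Other matrix genes were lower with TGF-β1 than with IL-13. POSTN stood at 8329.5 ± 2558 CPM and TGM2 at 254 ± 102 CPM in the IL-13 libraries (SD, n = 4), with log2 differences of -3.51 and -3.50 (adjusted p = 1.04e-16 and 4e-14). COL3A1 (-1.09, adjusted p = 3.97e-05), COL14A1 (-1.88, adjusted p = 1.09e-08) and COL1A1 (-1.18, adjusted p = 0.0223) were lower too, as were 3 repressed genes, ALDH1A1 (-4.55, adjusted p = 5.53e-09), VCAM1 (-3.76, adjusted p = 1.17e-11) and FGL2 (-4.49, adjusted p = 4e-14). HGF, at 174 ± 59.2 CPM with IL-13, showed no difference beyond the spread between replicates (log2 difference 0.45, adjusted p = 0.322). For ACTA2 (-0.42, adjusted p = 0.536) and TPM1 (0.37, adjusted p = 0.131) the log2 difference also did not pass.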

How the data were processed

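Human colon Ccd-18Co fibroblasts were sequenced in 44 bulk RNA libraries, and 8 were compared here, with 4 IL-13 libraries for 1 further contrast. Per the labels the authors quantified reads with kallisto 0.48.0, with FastQC 0.11.9, MultiQC 1.14 and the genome build hg38 also named in the submitters' processing notes, and deposited estimated counts per gene symbol, of which 5.77% were not whole. Transcriptome release and strand were not given in the sources used here. Counts were rounded, filtered (9513 of 40663 symbols kept), TMM-normalized and fitted in 1 model of all 44 libraries with edgeR 4.0.16 (R 4.3.3), by quasi-likelihood tests with Benjamini-Hochberg adjustment. Genes passed at an adjusted p under 0.05 and were called with an absolute log2 fold change above 1.5 as well. Standard errors were derived from the F statistic. Total counts were 825001 to 1725354 in the 8 libraries. Lists and members were chosen with earlier results of these data known. Named were the 15 steepest non-overlapping changes per direction with a mean log2 CPM of at least 1, list members (passing ones first) and the defining genes of the lists. CXCL10, RSAD2 and the neighbours of MMP10 were chosen after their values were seen. Some list members that passed are counted but not reported here by name. A group with at most 3 counts in every library was treated as a bound.

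Counts were simulated for 9513 genes, with the same dispersion for every gene and no shared structure between replicates. In them, 26 of 50 genes changed by 1.5 on the log2 scale passed, 37 of 50 changed by 2, 49 of 50 by 3 and 47 of 50 by 4. There, 15 passing genes (8.62%) were false, and these shares hold for that setting only. Alternatives were DESeq2 1.42.0 (Wald test, size factors), other filters and thresholds, the 8 libraries alone, the replicate number as a block and leaving out each library. Tables and plots were made with Python 3.11.15, pandas 2.3.3 and matplotlib 3.10.9. Promoters were taken from RefSeq (GRCh38.p14).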

Additional observations from a re-analysis of the deposited data

Results flagged for a closer look

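In 134 groups of 4 libraries, the highest or lowest library was compared with the others by its gap to the nearest one, divided by the range of the group, and set against the 95% critical value of Dixon. Of these, 9 were set apart, and chance sets apart about 1 in 20 groups. Among unstimulated libraries, replicate 2 was low for ID3 (53.2 CPM) and high for IFI44L (2.19 CPM), and replicate 1 was high for TIMP1 (2061 CPM), ADH1B (27.4 CPM) and TREM1 (0.49 CPM). The IFI44L and TREM1 values were the only ones above 0 in their group. Among TGF-β1 libraries, replicate 1 was low for ADAMTS1 (43.7 CPM) and high for COL3A1 (1642 CPM), replicate 2 had the only value above 0 for ADH1B (7.44 CPM), and replicate 4 was high for IFI44L (51.4 CPM).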

How the results depend on the processing

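Called genes numbered 320 (123 risen, 197 fallen) with an absolute log2 fold change above 1 and 541 (248 and 293) with no fold threshold. DESeq2's Wald test passed 381 risen genes and shared 146 of its 195 calls with edgeR. In the fit to the 8 libraries alone, 54 genes were called fallen, 108 rose and 115 fell. In that fit 4 matrix glycoproteins rose and 3 fell, 1 pathway component fell, 1 chemokine or cytokine rose, 3 resting fibroblast genes fell and 2 cell cycle genes fell. Of the 125 single genes followed, 51 missed the threshold in it. Among them were TCF21 (adjusted p = 0.117), OAS1 (0.0775), IFI27 (0.0990), VCAN (0.0808), CCL2 (0.0677) and TM4SF1 (0.0677). With all genes of any count tested, 5 secreted targets and 7 chemokines or cytokines rose. Leaving out 1 library at a time gave 111 to 221 called genes (46 to 80 risen, 65 to 141 fallen), 138 to 405 passing as risen and 175 to 454 as fallen, and 219 to 263 genes higher and 160 to 263 lower than with IL-13. It gave 2 to 3 fallen collagens, 4 to 8 risen and 2 to 6 fallen matrix glycoproteins, 9 to 11 risen proteases, 5 to 6 risen and 2 to 5 fallen pathway components, 2 to 3 risen secreted targets, 1 to 6 risen and 3 to 5 fallen chemokines or cytokines, 5 to 7 risen interferon-stimulated genes, 4 to 8 fallen resting fibroblast genes, 3 to 6 fallen trophic factors and 1 to 4 fallen cell cycle genes. The cause was not tested.

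Same-numbered libraries of both groups deviated together with r of 0.167, -0.033, 0.039 and 0.129. TGFB1 replicates 1 and 2 both correlated best with unstimulated replicate 1 (r = 0.167 and 0.297). TGFB1 replicates 3 and 4 both correlated best with unstimulated replicate 3 (r = 0.039 and 0.156). The contractile sum and AREG also set replicates 1 and 2 apart from 3 and 4 in both groups. What same-numbered libraries shared was not tested. With the replicate number as a block, 173 genes were called (67 risen, 106 fallen), NMB no longer passed and TAGLN did (adjusted p = 0.0391). Of 125 single genes followed, 64 kept their direction and side of the threshold under every alternative that gave them an adjusted p. Among those results 0 changed direction. DESeq2's Wald test gave an adjusted p for 8406 of the 9513 genes. At 20 to 47 counts per median tested gene, small changes of low genes were not detectable.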
